A study of Mus musculus with 38 samples.

Results

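The genes described here encode splicing factors: all 34 genes on the array whose symbol begins with Snrp, Srsf, Hnrnp, Sf3a or Sf3b, of 15644 genes measured. They comprised 4 Snrp genes, 9 Srsf genes, 13 Hnrnp genes and 8 genes of the Sf3a and Sf3b complexes. The membership rule used symbols only and no measured value. They were measured on 38 mouse arrays, each of either total tissue RNA or the RNA on tagged ribosomes of 1 population, pulled down by translating ribosome affinity purification. Tumour arrays (n = 3 in each group) covered the Recruited, Pdgf Cre and Pdgf models of glioma, each with bound RNA (of its Olig2 cells) and with total RNA. Adult cortex gave bound RNA of neurons (Snap25 line), oligodendrocyte progenitors (Pdgfra line), mature oligodendrocytes (Cnp line), astrocytes (Aldh1l1 line) and Olig2 cells (n = 3 each), and total RNA (n = 5). Cortex mice were labelled wild type, and a tumour had been induced in the others. All mice were of 1 mixed background of c57/bl6j, FVB and Swiss-Webster. A population is what the gene named in its label marks, not a sorted cell type. Each cortex sample pooled no fewer than 2 mice. For tumours the labels name neither a pool nor separate animals, nor the gene on which Cre acts nor what Recruited denotes, so p-values measure the spread between these samples, which may be technical. Cortex arrays form the first and tumour arrays the second dataset of the study, and between tumour and cortex the dataset and the tissue cannot be told apart.

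Splicing removes introns from the primary transcript, and the spliceosome that does so is assembled anew on each intron from small nuclear ribonucleoprotein particles. Snrp genes encode the Sm ring and other proteins of those particles. The Sf3a and Sf3b complexes belong to the U2 particle, which recognises the branch point. Srsf proteins bind exonic enhancers through RNA recognition motifs and recruit the machinery by a domain rich in arginine and serine. Hnrnp proteins coat nascent RNA, often repress exons, and several also stabilise, move or regulate messenger RNA in the cytoplasm. In the nervous system the balance of such factors, together with regulators such as Ptbp1, Ptbp2, Rbfox3 and Qk, sets neuronal and glial splicing patterns. Ribosome-bound RNA reports which of their messengers were on ribosomes. Neither protein nor splicing was measured.

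Levels are log2 values after the deposited values had been put on 1 common scale over the 38 arrays, and a level under log2 50 (5.64) is called dim. A member was called higher or lower where limma's adjusted p was under 0.05 and the difference at least 2-fold. This test was run on the 9799 genes that exceeded the limit in at least 3 arrays. Of the 34 members 33 were tested and 30 exceeded the limit in all 38 arrays. The exceptions among those tested were Srsf12, Snrpd1 and Srsf2, above it in 33, 36 and 30 arrays. Sf3a2 was dim everywhere and was not tested. Snrpn and Snrpb were not analysed here. In bulk RNA of this kind, fewer cells of a type and less RNA per cell cannot be told apart.

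The reporter genes followed their labels: Snap25 stood at 15.46 in neurons, Pdgfra at 10.35 in progenitors, Cnp at 14.23 in mature oligodendrocytes, Aldh1l1 at 11.45 in astrocytes and Olig2 at 12.47 in cortical Olig2 cells. The 8 neuron markers were not absent from other lines, with array means of 9.06 to 9.20 in progenitors and 9.59 to 9.73 in mature oligodendrocytes, against 11.48 to 12.05 in cortex total RNA. Recruited tumours varied most, with a median gene SD of 0.30 in bound and 0.45 in total RNA, against 0.03 to 0.21 elsewhere. Recruited total array 3 stood apart. Its neuron markers averaged 11.57, against 8.73 and 8.996 in the other 2 arrays of the group, its microglia and macrophage markers 6.95 against 10.01 and 8.45, and its 4 oligodendrocyte lineage markers 9.34 against 11.91 and 11.57. Counts of called members that rest on it are given with and without it. Each of the 12 groups shared its own minimum value, so the authors' normalization had been run group by group. It can make the spread within a group too small.

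Splicing factor genes were abundant and varied less than most. The median tested member had a mean level of 10.34 over all arrays, against 7.75 for all tested genes. For the median member the 12 group means spanned 2.50 log2 units, against 3.55 for all tested genes. Within the set the span lay between 1.36 for Sf3a1 and 6.11 for Srsf12. The heat map of group means shows the 8 widest members as the rows that change colour most: Srsf12, Hnrnpr, Snrpd1, Srsf1, Srsf9, Hnrnpa2b1, Hnrnpu and Hnrnpl.

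**Figure D1:**
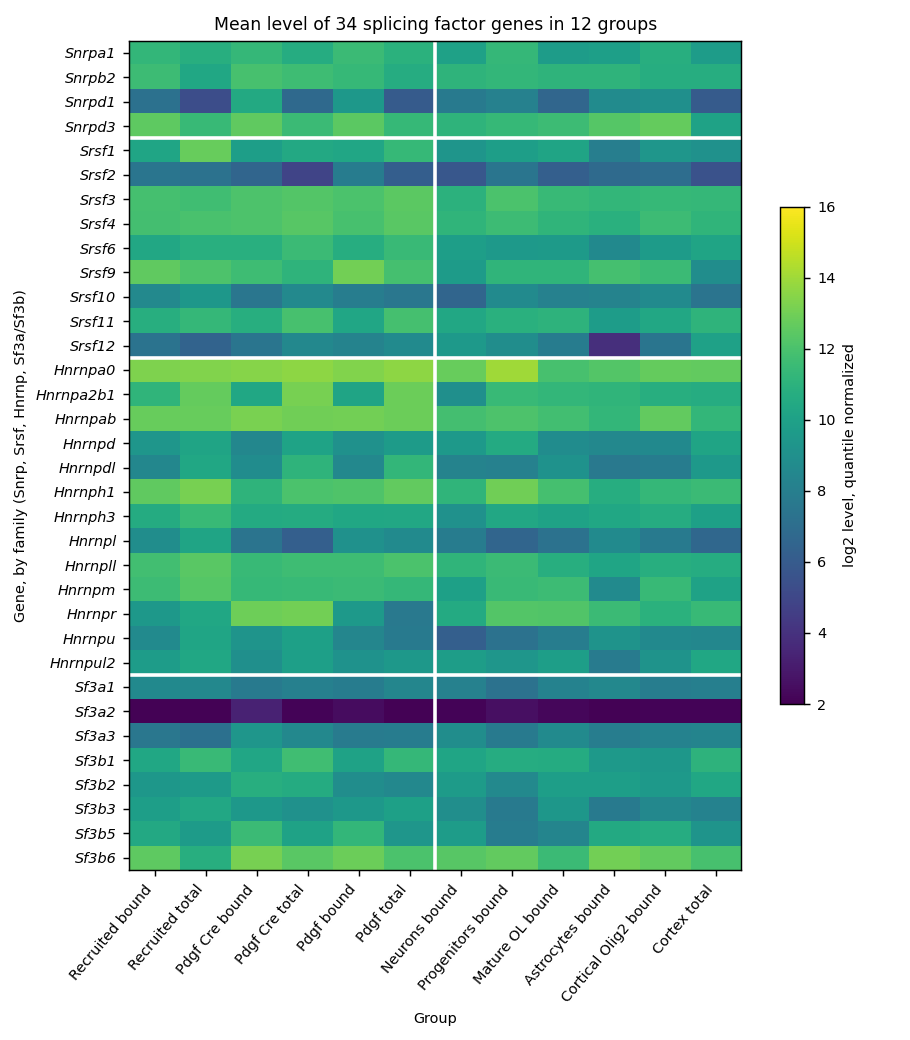
Mean log2 level (colour, quantile normalized) of the 34 splicing factor genes (rows, by family) in the 12 groups (columns, n = 3 arrays each and 5 for cortex total). Srsf12 falls to 3.91 in astrocytes, Hnrnpr spans 7.63 to 13.01, and Sf3a2 is dim in every column.

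Among the Sm proteins, Snrpd1 (SmD1) and Snrpd3 (SmD3) are parts of the ring that closes around the small nuclear RNAs. Snrpd1 read 7.24, 7.12 and 7.24 in Recruited bound RNA, against 5.74, 5.28 and 4.93 in Recruited total RNA. Snrpd1 gave 10.45, 10.72 and 10.40 in Pdgf Cre bound and 6.61, 7.13 and 6.61 in Pdgf Cre total RNA, and 9.79, 9.18 and 9.47 in Pdgf bound and 5.94, 5.69 and 6.41 in Pdgf total RNA. Bound RNA lay above total RNA in every tumour array of the same model, and Recruited bound arrays lay below all other tumour bound arrays. In cortex, Snrpd1 stood at 7.78, 7.74 and 7.74 in neurons, 8.31, 8.13 and 7.97 in progenitors and 6.64, 6.62 and 6.62 in mature oligodendrocytes. For Snrpd1, astrocytes gave 8.77, 9.07 and 8.40, cortical Olig2 cells 9.30, 8.98 and 8.68, and cortex total RNA 6.01, 6.08, 5.93, 6.21 and 5.98. All 15 cortical bound arrays exceeded all 5 cortex total arrays. Mature oligodendrocytes had the lowest bound values of any population and Pdgf Cre tumours the highest.

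Snrpb2, a protein of the U2 particle, had the narrowest span of its family. Snrpb2 read 11.65, 11.56 and 11.58 in Recruited bound RNA, against 10.59, 10.45 and 10.002 in Recruited total RNA. Snrpb2 gave 11.97, 11.90 and 11.92 in Pdgf Cre bound and 11.75, 11.62 and 11.63 in Pdgf Cre total RNA, and 11.22, 11.51 and 11.44 in Pdgf bound and 10.53, 10.65 and 10.83 in Pdgf total RNA. The Recruited and Pdgf arrays did not overlap between bound and total RNA, and Pdgf Cre bound arrays lay just above their total arrays. In cortex, Snrpb2 stood at 11.22, 11.15 and 10.97 in neurons, 11.40, 11.31 and 11.07 in progenitors and 11.19, 11.26 and 10.88 in mature oligodendrocytes. For Snrpb2, astrocytes gave 10.97, 11.51 and 10.83, cortical Olig2 cells 10.84, 10.70 and 10.70, and cortex total RNA 10.76, 10.77, 10.49, 10.89 and 10.77. Neurons, progenitors, mature oligodendrocytes and astrocytes overlapped one another, and cortical Olig2 cells overlapped cortex total RNA.

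Srsf12 is an SR-related protein that can oppose the activity of the classical SR proteins. Of all members it varied most between groups. Srsf12 read 8.36, 6.16 and 7.43 in Recruited bound RNA, against 5.53, 5.61 and 8.29 in Recruited total RNA. Srsf12 gave 7.001, 7.30 and 8.01 in Pdgf Cre bound and 8.10, 8.51 and 8.92 in Pdgf Cre total RNA, and 8.30, 8.26 and 8.26 in Pdgf bound and 8.61, 8.78 and 8.70 in Pdgf total RNA. Recruited arrays overlapped between bound and total RNA, and total array 3 lay far above the other 2. In cortex, Srsf12 stood at 9.56, 9.60 and 9.42 in neurons, 8.93, 8.91 and 8.82 in progenitors and 7.94, 8.22 and 7.53 in mature oligodendrocytes. For Srsf12, astrocytes gave 3.94, 3.85 and 3.93, cortical Olig2 cells 7.35, 7.26 and 7.69, and cortex total RNA 10.20, 9.89, 10.04, 9.78 and 10.16. Astrocytes were dim in all 3 arrays. Cortex total RNA was highest, followed by neurons, and the 2 did not overlap.

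Srsf1 is the prototype SR protein, a regulator of both splice site choice and translation. Srsf1 read 10.44, 10.34 and 9.88 in Recruited bound RNA, against 13.40, 13.14 and 11.64 in Recruited total RNA. Srsf1 gave 10.06, 9.74 and 9.76 in Pdgf Cre bound and 10.81, 10.21 and 10.38 in Pdgf Cre total RNA, and 9.78, 10.36 and 10.76 in Pdgf bound and 11.16, 11.45 and 11.54 in Pdgf total RNA. Total RNA exceeded bound RNA in all 3 models without overlap, and Recruited total array 3 was the lowest of its group. In cortex, Srsf1 stood at 9.34, 9.39 and 9.17 in neurons, 9.63, 9.78 and 10.16 in progenitors and 10.30, 10.14 and 10.12 in mature oligodendrocytes. For Srsf1, astrocytes gave 7.81, 8.30 and 7.83, cortical Olig2 cells 9.46, 9.52 and 9.08, and cortex total RNA 9.05, 8.90, 9.06, 8.91 and 9.45. Astrocytes had the lowest values of all groups. Mature oligodendrocytes lay above cortex total RNA without overlap.

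Srsf9 is another SR protein that acts on alternative exons. Srsf9 read 11.95, 13.06 and 12.74 in Recruited bound RNA, against 12.46, 12.51 and 11.33 in Recruited total RNA. Srsf9 gave 11.71, 11.75 and 11.46 in Pdgf Cre bound and 11.56, 11.01 and 10.82 in Pdgf Cre total RNA, and 12.89, 12.93 and 13.20 in Pdgf bound and 11.68, 11.81 and 12.14 in Pdgf total RNA. Only the Pdgf arrays were separated between bound and total RNA. In cortex, Srsf9 stood at 9.60, 9.56 and 9.81 in neurons, 11.14, 10.54 and 11.78 in progenitors and 11.23, 11.04 and 11.17 in mature oligodendrocytes. For Srsf9, astrocytes gave 11.80, 11.94 and 11.87, cortical Olig2 cells 12.33, 12.28 and 10.09, and cortex total RNA 8.82, 8.79, 8.89, 9.15 and 8.62. Every glial array exceeded every cortex total array. Cortical Olig2 array 3 was more than 2 log2 units below the other 2 of its group.

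Srsf3, which also takes part in messenger RNA export, had the narrowest span of the Srsf genes. Srsf3 read 12.84, 11.61 and 11.15 in Recruited bound RNA, against 12.33, 11.89 and 10.91 in Recruited total RNA. Srsf3 gave 12.23, 12.13 and 11.93 in Pdgf Cre bound and 12.23, 12.29 and 12.29 in Pdgf Cre total RNA, and 11.80, 12.11 and 12.23 in Pdgf bound and 12.41, 12.67 and 12.41 in Pdgf total RNA. Recruited arrays overlapped between bound and total RNA, and bound array 1 was the highest of all tumour bound arrays. In cortex, Srsf3 stood at 11.04, 11.06 and 10.94 in neurons, 12.02, 12.05 and 11.97 in progenitors and 11.42, 11.49 and 11.35 in mature oligodendrocytes. For Srsf3, astrocytes gave 11.23, 11.26 and 11.36, cortical Olig2 cells 11.41, 11.31 and 11.44, and cortex total RNA 11.41, 11.30, 11.61, 11.09 and 11.10. Neurons lay just below cortex total RNA, without overlap. Progenitors were the highest cortical population.

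Hnrnpr is an RNA-binding protein of nucleus and cytoplasm that is also found in axons of motor neurons. Hnrnpr read 7.49, 11.54 and 9.43 in Recruited bound RNA, against 10.94, 10.04 and 10.03 in Recruited total RNA. Hnrnpr gave 13.25, 12.83 and 12.65 in Pdgf Cre bound and 13.28, 12.90 and 12.86 in Pdgf Cre total RNA, and 9.64, 9.11 and 9.98 in Pdgf bound and 8.44, 6.28 and 8.17 in Pdgf total RNA. Pdgf Cre arrays were the highest of all tumour arrays in both fractions. Recruited bound arrays spread over about 4 log2 units, and Pdgf total array 2 was low in its group. In cortex, Hnrnpr stood at 10.60, 10.49 and 10.60 in neurons, 12.14, 12.34 and 12.23 in progenitors and 12.45, 12.26 and 11.95 in mature oligodendrocytes. For Hnrnpr, astrocytes gave 12.05, 10.88 and 11.74, cortical Olig2 cells 10.89, 10.96 and 10.98, and cortex total RNA 11.82, 11.83, 11.21, 11.02 and 11.17. Mature oligodendrocytes and progenitors were the highest cortical populations, and neurons the lowest.

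Hnrnpa2b1 binds a trafficking element in messengers such as that of myelin basic protein and is known in oligodendrocytes for moving them into processes. Hnrnpa2b1 read 11.64, 11.38 and 10.50 in Recruited bound RNA, against 13.22, 13.06 and 11.80 in Recruited total RNA. Hnrnpa2b1 gave 10.42, 10.21 and 10.48 in Pdgf Cre bound and 13.26, 12.75 and 13.34 in Pdgf Cre total RNA, and 9.93, 10.36 and 10.32 in Pdgf bound and 12.58, 13.12 and 12.92 in Pdgf total RNA. Total RNA exceeded bound RNA in every model without overlap. In cortex, Hnrnpa2b1 stood at 8.98, 8.97 and 8.98 in neurons, 11.47, 11.49 and 11.31 in progenitors and 11.26, 11.26 and 11.27 in mature oligodendrocytes. For Hnrnpa2b1, astrocytes gave 11.10, 11.43 and 10.93, cortical Olig2 cells 10.76, 10.68 and 10.82, and cortex total RNA 10.74, 10.73, 10.80, 10.16 and 10.78. Neurons were lowest of all 12 groups. All 12 glial arrays lay above all 3 neuron arrays.

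Hnrnpu (also known as scaffold attachment factor A) binds chromatin-associated RNA. Hnrnpu read 8.67, 8.94 and 8.41 in Recruited bound RNA, against 11.17, 10.34 and 9.25 in Recruited total RNA. Hnrnpu gave 9.44, 9.09 and 9.25 in Pdgf Cre bound and 10.47, 10.04 and 9.43 in Pdgf Cre total RNA, and 8.44, 8.32 and 8.45 in Pdgf bound and 7.62, 7.67 and 7.81 in Pdgf total RNA. Total RNA exceeded bound RNA without overlap in Recruited tumours, bound exceeded total in Pdgf tumours without overlap, and in Pdgf Cre tumours the fractions overlapped. In cortex, Hnrnpu stood at 6.26, 6.26 and 6.25 in neurons, 7.28, 7.29 and 7.28 in progenitors and 7.99, 7.94 and 7.94 in mature oligodendrocytes. For Hnrnpu, astrocytes gave 9.53, 9.52 and 8.59, cortical Olig2 cells 8.69, 8.66 and 8.56, and cortex total RNA 8.43, 9.32, 8.42, 8.20 and 8.15. Neurons were lowest of all groups, just above the dim limit. Cortex total array 2 was the highest of its group.

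Hnrnpl binds CA-rich RNA and regulates exon inclusion. Hnrnpl read 8.41, 9.52 and 8.70 in Recruited bound RNA, against 10.26, 10.54 and 9.66 in Recruited total RNA. Hnrnpl gave 7.48, 7.69 and 7.02 in Pdgf Cre bound and 6.25, 6.30 and 6.24 in Pdgf Cre total RNA, and 8.64, 9.20 and 9.34 in Pdgf bound and 8.26, 8.59 and 9.26 in Pdgf total RNA. Pdgf Cre total arrays were the lowest of the tumours and Recruited total arrays the highest. In cortex, Hnrnpl stood at 7.88, 7.83 and 7.88 in neurons, 6.57, 6.35 and 6.80 in progenitors and 7.24, 7.24 and 7.30 in mature oligodendrocytes. For Hnrnpl, astrocytes gave 9.22, 7.82 and 9.07, cortical Olig2 cells 8.45, 8.16 and 6.65, and cortex total RNA 6.58, 6.59, 6.49, 6.56 and 7.07. Progenitors overlapped cortex total RNA. Cortical Olig2 array 3 and astrocyte array 2 were low in their groups.

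Hnrnpab is a close relative of Hnrnpd with roles in transcription and messenger transport, and it had the narrowest span of the Hnrnp genes. Hnrnpab read 12.72, 12.87 and 12.61 in Recruited bound RNA, against 12.93, 13.12 and 12.18 in Recruited total RNA. Hnrnpab gave 13.11, 13.29 and 13.08 in Pdgf Cre bound and 12.93, 12.98 and 12.92 in Pdgf Cre total RNA, and 12.96, 12.91 and 13.24 in Pdgf bound and 12.85, 12.57 and 13.14 in Pdgf total RNA. Bound and total RNA overlapped in Recruited and in Pdgf tumours. In cortex, Hnrnpab stood at 11.84, 11.82 and 11.86 in neurons, 12.07, 12.13 and 12.05 in progenitors and 11.77, 11.72 and 11.75 in mature oligodendrocytes. For Hnrnpab, astrocytes gave 11.26, 11.36 and 11.25, cortical Olig2 cells 12.65, 12.58 and 12.62, and cortex total RNA 11.29, 11.14, 11.27, 11.19 and 11.55. All 18 tumour arrays exceeded all cortex total arrays, and cortical Olig2 cells were the highest cortical population.

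Sf3a1, a subunit of the Sf3a complex of the U2 particle, had the narrowest span of all tested members. Sf3a1 read 8.67, 8.91 and 8.33 in Recruited bound RNA, against 8.59, 8.33 and 8.69 in Recruited total RNA. Sf3a1 gave 8.08, 7.77 and 7.32 in Pdgf Cre bound and 8.25, 8.10 and 8.02 in Pdgf Cre total RNA, and 7.33, 8.06 and 8.30 in Pdgf bound and 8.30, 8.54 and 8.44 in Pdgf total RNA. Bound and total RNA overlapped in Recruited and in Pdgf Cre tumours. In cortex, Sf3a1 stood at 8.25, 8.06 and 8.17 in neurons, 7.37, 7.08 and 7.38 in progenitors and 8.12, 8.01 and 8.51 in mature oligodendrocytes. For Sf3a1, astrocytes gave 8.61, 8.46 and 8.47, cortical Olig2 cells 8.17, 8.02 and 7.67, and cortex total RNA 8.05, 8.06, 8.13, 7.53 and 8.35. Progenitors had the lowest group mean, and most other groups overlapped one another.

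Bound RNA was set against total RNA of the same tumours to ask which of these messengers were enriched or depleted on ribosomes of Olig2 cells. In all 3 models bound RNA was higher in the Sm protein genes Snrpd1 and Snrpd3 and lower in Hnrnpdl, Hnrnpa2b1 and Sf3b1. Recruited tumours had 4 members higher and 6 lower, 30.3% of the 33, where the background was 44.3% of all tested genes, 24.1% higher and 20.2% lower. Pdgf Cre tumours had 5 higher and 7 lower (36.4%, background 38% of all tested genes, 20% higher and 18.1% lower), and Pdgf tumours 6 higher and 5 lower (33.3%, background 32.2% of all tested genes, 16.9% higher and 15.3% lower). The share of members was below the background in Recruited tumours and near it in the others. The median difference of the 33 was -0.42 in Recruited, -0.17 in Pdgf Cre and -0.061 in Pdgf tumours, against 0.13, 0.13 and 0.052 over all tested genes. In Recruited tumours all 13 Hnrnp genes had a value below 0, of which 4 were called, but 2 of the 13 lay above 0 on the deposited scale and 3 with centred values. Over the 3 models 18 members were called at least once, and 1, Hnrnpl, in both directions.

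Snrpd1 was higher by 1.88 ± 0.20 SE in Recruited (adjusted p = 2.13e-09, at least 2.93-fold since total RNA was dim), by 3.74 in Pdgf Cre and by 3.47 in Pdgf tumours. Snrpd3 read 12.12, 12.79 and 12.74 in Recruited bound, against 12.37, 11.46 and 10.46 in Recruited total RNA, where the arrays overlapped. Its Pdgf Cre values were 12.60, 12.69 and 12.40 in bound and 11.46, 11.67 and 11.50 in total RNA, and its Pdgf values 12.45, 12.37 and 12.62 in bound and 10.99, 11.23 and 11.88 in total RNA, without overlap in either model. The log2 differences of Snrpd3 were 1.12, 1.02 and 1.11 in the order Recruited, Pdgf Cre, Pdgf (adjusted p = 0.00229, 0.00556 and 0.00333). The U2 proteins Snrpb2 and Snrpa1 had values above 0 in all 3 models, and only Snrpb2 in Recruited tumours was called, at 11.60 ± 0.047 in bound, 10.35 ± 0.31 in total (log2 difference 1.25 ± 0.15 SE, adjusted p = 2.09e-08).

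Hnrnpdl, a relative of Hnrnpd, was lower in bound RNA of every model. It read 8.46, 8.59 and 8.32 in Recruited bound, against 10.29, 10.48 and 10.23 in Recruited total RNA. Its Pdgf Cre values were 8.64, 8.87 and 8.90 in bound and 11.15, 11.05 and 11.10 in total RNA, and its Pdgf values 8.45, 8.41 and 8.67 in bound and 11.02, 11.30 and 11.42 in total RNA. All 9 bound arrays of Hnrnpdl thus lay below all 9 total arrays, with differences of -1.87 in Recruited, -2.29 in Pdgf Cre and -2.74 in Pdgf tumours (adjusted p = 8.75e-16, 8.58e-18 and 1.79e-19). Hnrnpa2b1 differed by -1.52 in Recruited (adjusted p = 1.21e-05), -2.75 in Pdgf Cre (adjusted p = 4.63e-10) and -2.67 in Pdgf tumours (adjusted p = 1.03e-09). Hnrnpu was lower in Recruited bound RNA (log2 difference -1.58 ± 0.32 SE, adjusted p = 7.48e-05), and Hnrnpd, a decay factor that binds AU-rich elements, was lower in Pdgf Cre bound RNA (8.48 ± 0.0072 against 10.13 ± 0.034, log2 difference -1.64 ± 0.18 SE, adjusted p = 4.55e-09). Hnrnpl was lower in Recruited bound RNA (-1.28) and higher in Pdgf Cre bound RNA (1.14). Hnrnpr was higher in Pdgf bound RNA (log2 difference 1.94 ± 0.57 SE, adjusted p = 0.00502).

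**Figure D2:**
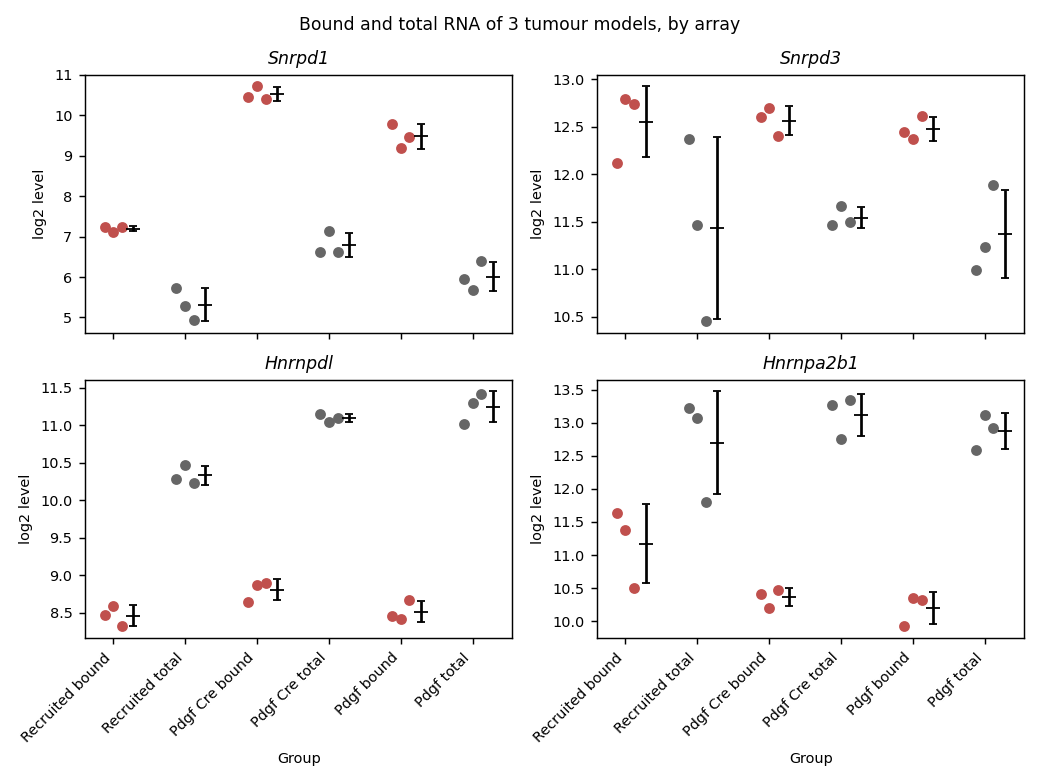
Log2 level of Snrpd1, Snrpd3, Hnrnpdl and Hnrnpa2b1 in each array (points) of bound (red) and total (grey) RNA of 3 tumour models, with mean and SD over n = 3 arrays (black). Bound arrays of Snrpd1 lie above, and those of Hnrnpdl and Hnrnpa2b1 below, the total arrays of the same model, and Snrpd3 overlaps in Recruited tumours.

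Of the Sf3b genes, Sf3b1, whose protein contacts the branch site region, was lower in bound RNA of all models (10.34 ± 0.20 against 11.48 ± 0.47 in Recruited, 10.27 ± 0.28 against 11.69 ± 0.18 in Pdgf Cre and 10.04 ± 0.046 against 11.35 ± 0.11 in Pdgf tumours). The small subunit Sf3b5 was higher in Pdgf Cre and Pdgf bound RNA, by 1.46 and 1.90 (adjusted p = 1.81e-06 and 2.3e-08). Sf3b6, which touches the branch point itself, was higher in Recruited bound RNA (12.52 ± 0.40 against 10.80 ± 0.27, log2 difference 1.72 ± 0.18 SE, adjusted p = 2.37e-09). Among the SR proteins, Srsf1 was lower in Recruited (-2.51) and Pdgf bound RNA (-1.09). Srsf11 was lower in Pdgf Cre (-1.16) and Pdgf bound RNA (-1.57), and Srsf10 and Srsf12 in Pdgf Cre (-1.10 and -1.07). Srsf2, also called SC35, was higher in Pdgf Cre (at least 1.9-fold, total RNA dim) and Pdgf bound RNA (3.27-fold), and Srsf9 in Pdgf bound RNA (2.19-fold).

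Microglia and macrophage markers moved with this contrast. Array means of the 8 markers were 3.79 to 6.06 in Recruited bound and 6.95 to 10.01 in Recruited total RNA, 3.69 to 4.56 in Pdgf Cre bound and 8.87 to 9.66 in Pdgf Cre total RNA, and 4.15 to 4.74 in Pdgf bound and 9.17 to 9.45 in Pdgf total RNA. Of the 8, 6, 6 and 5 were dim in bound RNA of Recruited, Pdgf Cre and Pdgf tumours, against 2 in each total RNA. The 8 neuron markers averaged 5.996 to 6.68 in Recruited bound and 8.73 to 11.57 in Recruited total RNA, 4.99 to 5.18 in Pdgf Cre bound and 8.37 to 9.09 in Pdgf Cre total RNA, and 4.91 to 5.05 in Pdgf bound and 7.75 to 8.85 in Pdgf total RNA. Their part in the members' differences was not tested. The replicate block ended the calls of Hnrnpu (adjusted p = 0.0596) and Snrpd3 (adjusted p = 0.216) in Recruited tumours. In Recruited tumours Sf3b1 (-0.93 without Recruited total array 1) and Snrpd3 (0.63 without Recruited total array 3) lost their calls with that 1 array left out. In Pdgf Cre tumours Hnrnpl (0.99 without Pdgf Cre bound array 2), Snrpd3 (0.96 to 0.999 without Pdgf Cre bound array 2 or Pdgf Cre total array 1 or 3), Srsf10 (-1.09 to -0.97 without Pdgf Cre bound array 2 or Pdgf Cre total array 1 or 3) and Srsf12 (-1.08 to -0.86 without Pdgf Cre bound array 1 or 2 or Pdgf Cre total array 2 or 3) lost their calls with that 1 array left out. In Pdgf tumours Hnrnpr (1.27 without Pdgf total array 2), Snrpd3 (0.92 without Pdgf total array 1), Srsf1 (-0.83 without Pdgf bound array 1) and Srsf9 (1.03 without Pdgf bound array 3 or Pdgf total array 1) lost their calls with that 1 array left out. The count in Recruited tumours was 13 without Recruited total array 3.

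The scale matters for how these differences are read. In Recruited tumours, with the values as deposited, 32.4% of the genes called were higher, against 54.4% on the common scale. For Pdgf Cre tumours 24.1% of the genes called were higher, against 52.5% on the common scale, and for Pdgf tumours 18.6% of the genes called were higher, against 52.4% on the common scale. The median gene lay at -0.29, -0.21 and -0.34, on the deposited scale, against 0.13, 0.13 and 0.052 on the common scale, in the order Recruited, Pdgf Cre, Pdgf. The median member lay at -0.50, 0.0067 and -0.22 on the deposited scale and at 0.029, 0.50 and 0.36 with centred values, in the same order, against -0.42, -0.17 and -0.061 on the common scale, so its sign depended on the scale. With deposited values centred on each array's median, the members called split into 6 higher and 3 lower in Recruited, 7 and 5 in Pdgf Cre, and 9 and 2 in Pdgf tumours. Calls in the same direction on all 3 scales numbered 6 of 10, 8 of 12 and 7 of 11, and no called member changed sign.

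The tumour models were compared within each fraction to ask which members differ between them. In bound RNA, Pdgf Cre tumours carried more Hnrnpr, Sf3b2, Sf3a3 and Snrpd1 than Pdgf tumours and less Hnrnpl, Srsf9, Srsf2 and Hnrnph1. These 8 members, 4 higher and 4 lower, made 24.2% of the 33, where the background was 16.6% of all tested genes, 7.77% higher and 8.87% lower. Hnrnpr stood at 12.91 ± 0.31 in Pdgf Cre and 9.58 ± 0.44 in Pdgf bound RNA (log2 difference 3.34 ± 0.57 SE, adjusted p = 2.57e-05). Sf3b2, a subunit that helps anchor the U2 particle, read 10.94, 10.84 and 10.56 in Pdgf Cre, against 8.86, 8.83 and 8.83 in Pdgf bound RNA (log2 difference 1.94 ± 0.12 SE, adjusted p = 3.63e-14). Sf3a3 read 9.41, 9.42 and 9.25 in Pdgf Cre, against 7.99, 7.68 and 7.85 in Pdgf bound RNA (log2 difference 1.52 ± 0.13 SE, adjusted p = 1.62e-10). For these 3 genes, and for Snrpd1, the models did not overlap. The log2 difference was -1.67 for Hnrnpl, -1.37 for Srsf9, -1.31 for Srsf2, -1.02 for Hnrnph1, which binds G-rich RNA, and 1.04 for Snrpd1. Hnrnph1 (-0.98 to -0.80 without Pdgf Cre bound array 2 or 3 or Pdgf bound array 2 or 3) and Snrpd1 (0.89 to 0.94 without Pdgf Cre bound array 2 or Pdgf bound array 2) lost their calls with that 1 array left out. On the deposited scale 29.7% of the genes called were higher, against 46.7% on the common scale.

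The promoters of Hnrnpr, Sf3b2 and Sf3a3 are shown because these genes were higher in Pdgf Cre bound RNA without overlap. RefSeq (GRCm38.p6) gave windows of 250 bases before to 50 after the transcription start for 30 of the 34 members, and the most upstream start was taken where a gene had several. Snrpd1, also higher in Pdgf Cre bound RNA without overlap, was not among these 30. Hnrnpr lies at chr4:136310692-136310991, plus strand, Sf3b2 at chr19:5295408-5295707, minus strand and Sf3a3 at chr4:124714611-124714910, plus strand. Capitals mark matches, on either strand, to the GC box GGGCGG, the CCAAT box CCAAT, the ETS motif CCGGAAG, the E box CACGTG and the TATA box TATAAA.
Hnrnpr: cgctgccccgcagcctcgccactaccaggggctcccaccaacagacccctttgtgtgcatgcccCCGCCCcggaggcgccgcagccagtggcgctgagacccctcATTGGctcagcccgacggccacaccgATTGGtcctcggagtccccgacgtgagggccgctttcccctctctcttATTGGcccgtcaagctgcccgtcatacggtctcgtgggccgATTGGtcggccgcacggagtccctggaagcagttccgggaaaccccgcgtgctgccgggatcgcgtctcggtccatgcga
Sf3b2: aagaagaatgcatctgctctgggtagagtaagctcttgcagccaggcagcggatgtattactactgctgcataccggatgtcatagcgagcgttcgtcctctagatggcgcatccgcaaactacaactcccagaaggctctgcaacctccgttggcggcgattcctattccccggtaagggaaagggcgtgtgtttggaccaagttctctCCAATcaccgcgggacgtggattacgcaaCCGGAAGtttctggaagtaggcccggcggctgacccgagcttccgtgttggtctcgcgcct
Sf3a3: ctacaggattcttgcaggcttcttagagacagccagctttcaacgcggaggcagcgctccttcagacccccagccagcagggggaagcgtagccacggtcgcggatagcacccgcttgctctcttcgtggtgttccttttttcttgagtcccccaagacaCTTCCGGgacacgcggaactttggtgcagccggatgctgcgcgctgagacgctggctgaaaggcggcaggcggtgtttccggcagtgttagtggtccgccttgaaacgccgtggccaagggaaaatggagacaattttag
The Hnrnpr window holds 4 CCAAT boxes and 1 GC box, the Sf3b2 window 1 CCAAT box and 1 ETS motif, and the Sf3a3 window 1 ETS motif. No motif of the 5 is in all 3 windows. Of the 40 member windows 32.5% hold the ETS motif, 80% the GC box, 42.5% the CCAAT box, 12.5% the TATA box and 5% the E box. Of all 32851 windows these shares were 8.86%, 35.7%, 37.4%, 13.6% and 7.15%. No motif searched holds another. A match is a description of the letters and not a bound site.

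In total RNA the same contrast gave 6 calls, 4 higher and 2 lower in Pdgf Cre (18.2%, background 21.1% of all tested genes, 10.4% higher and 10.8% lower). Hnrnpr was higher in Pdgf Cre total RNA by 5.38 ± 0.57 SE (13.01 ± 0.23 against 7.63 ± 1.18, adjusted p = 5.85e-09), the largest difference of any member between models. Sf3b2 was higher too (10.61 ± 0.038 against 8.53 ± 0.11), and so were Hnrnpu (log2 difference 2.28 ± 0.32 SE, adjusted p = 7.64e-07) and Srsf10 (log2 difference 1.03 ± 0.42 SE, adjusted p = 0.0493). Hnrnpl and Srsf2 were lower, as in bound RNA, Hnrnpl by 5.43-fold (log2 difference -2.44 ± 0.36 SE, adjusted p = 2.47e-06) and Srsf2 by at least 1.43-fold (Pdgf Cre dim). Sf3a3 did not reach 2-fold in total RNA, at 8.55 ± 0.27 in Pdgf Cre and 7.90 ± 0.13 in Pdgf tumours (log2 difference 0.64 ± 0.13 SE, adjusted p = 0.000238). Srsf10 (0.59 to 1.18 without Pdgf Cre total array 1, 2 or 3 or Pdgf total array 1 or 3) lost the call with that 1 array left out. On the deposited scale 26.9% of the genes called were higher, against 49% on the common scale.

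**Figure D3:**
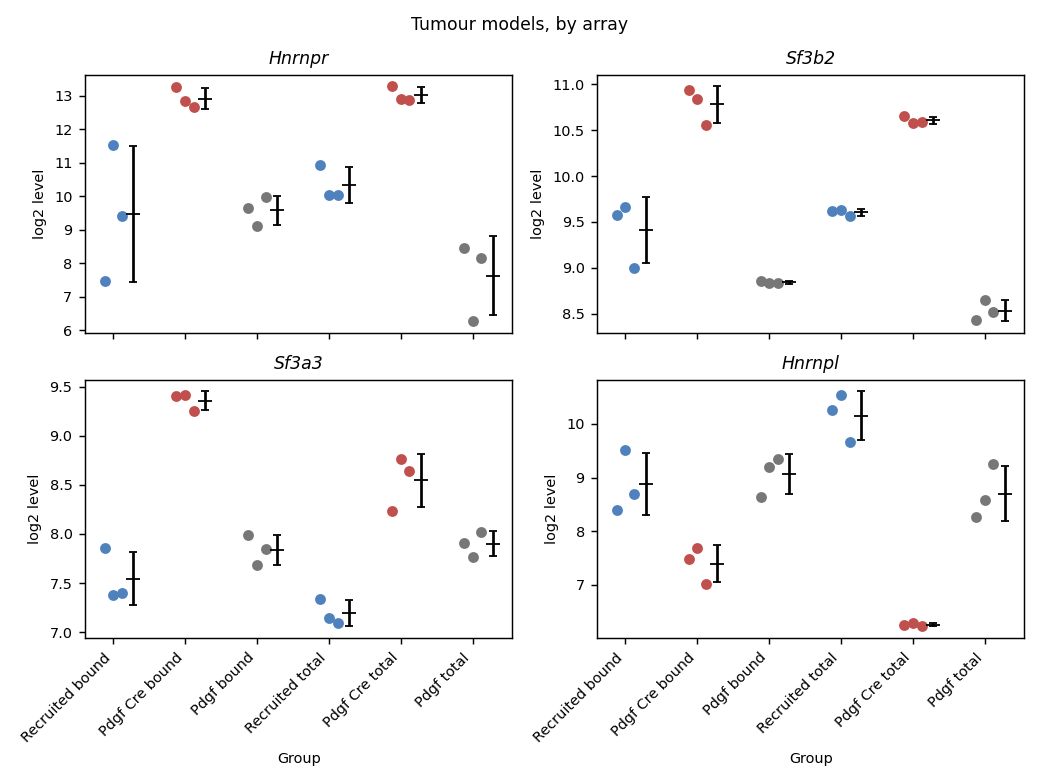
Log2 level of Hnrnpr, Sf3b2, Sf3a3 and Hnrnpl in each array (points) of the Recruited (blue), Pdgf Cre (red) and Pdgf (grey) models, bound RNA left and total RNA right, with mean and SD over n = 3 arrays (black). Pdgf Cre arrays are the highest for Hnrnpr, Sf3b2 and Sf3a3 and the lowest for Hnrnpl within each fraction, and Recruited bound arrays of Hnrnpr spread over 7.49 to 11.54.

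Between Recruited and Pdgf tumours, 1 of 33 members was called in bound RNA (3.03%), where the background was 25.8% of all tested genes, 12.8% higher and 13% lower. That member, Snrpd1, was lower in Recruited tumours (7.20 ± 0.068 against 9.48 ± 0.31, log2 difference -2.28 ± 0.20 SE, adjusted p = 7.36e-11). Hnrnpr differed by -0.093 with a 95% interval of -1.27 to 1.08, and Srsf3 by -0.18 with one of -0.73 to 0.38, so a 2-fold difference in Hnrnpr lies inside its interval. The count was 3 without Pdgf bound array 2, and 2 without Pdgf bound array 3 or Recruited bound array 1 or 3. In total RNA, 10 were called (30.3%, background 34.5% of all tested genes, 16.7% higher and 17.8% lower), 8 higher and 2 lower in Recruited tumours, and 11 without Recruited total array 3. Higher in Recruited total RNA were Hnrnpr (2.70), Hnrnpu (2.56), Hnrnpl (1.45), Hnrnph3 (1.06), Srsf10 (1.85), Srsf1 (1.34), Srsf2 (1.14) and Sf3b2 (1.07). Lower were Srsf12 (log2 difference -2.22 ± 0.46 SE, adjusted p = 0.000153) and Sf3b6 (-1.23). The arrays of Srsf10 and Hnrnph3 overlapped between the models. Srsf2 (0.92 to 0.97 without Recruited total array 1 or 2) lost the call with that 1 array left out. Hnrnph3 was not followed when an array was left out. A fit of only the 6 arrays compared called 5.

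Markers of other cell types moved with the contrasts between models. In bound RNA the 7 measured mature oligodendrocyte markers averaged 10.94 to 13.41 in Recruited, 6.73 to 8.75 in Pdgf Cre and 6.38 to 6.56 in Pdgf tumours, with 0, 1 and 4 of 7 dim. The 7 measured astrocyte markers averaged 10.24 to 10.99 in Recruited, 5.99 to 6.30 in Pdgf Cre and 5.57 to 5.69 in Pdgf bound RNA, with 0, 4 and 4 of 7 dim. Both lists, and the 8 neuron markers given above, were thus highest in the Recruited bound arrays, without overlap with the other models. In total RNA the mature oligodendrocyte markers averaged 9.10 to 10.81 in Recruited, 6.81 to 8.23 in Pdgf Cre and 6.43 to 6.62 in Pdgf tumours, and the astrocyte markers 8.88 to 9.38, 7.88 to 8.62 and 7.62 to 8.48 in the same models. The part of these markers in the differences of Snrpd1, Hnrnpr and the other members between models was not tested.

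Recruited tumours differed from Pdgf Cre tumours in bound RNA in 8 members (24.2%, background 34.5% of all tested genes, 17.5% higher and 17% lower). Higher in Recruited were Hnrnph1 (12.61 ± 0.52 against 11.13 ± 0.25), Hnrnpl (8.88 ± 0.58 against 7.40 ± 0.34) and Srsf10 (8.58 ± 0.52 against 7.48 ± 0.23). Lower were Hnrnpr (log2 difference -3.43 ± 0.57 SE, adjusted p = 8.37e-06), Snrpd1 (log2 difference -3.32 ± 0.20 SE, adjusted p = 1.06e-14), Sf3a3 (-1.81), Sf3b2 (-1.37) and Sf3b5 (-1.09). Hnrnpr, Sf3b2 and Sf3a3 were thus lower than in Pdgf Cre bound RNA in both other models. The 2 comparisons share the Pdgf Cre arrays. Sf3b5 (-0.96 without Recruited bound array 2) and Srsf10 (0.83 to 0.98 without Pdgf Cre bound array 2 or Recruited bound array 1) lost their calls with that 1 array left out. On the deposited scale 70.7% of the genes called were higher, against 50.7% on the common scale. In total RNA, 12 members differed (5 higher and 7 lower in Recruited, 36.4%, background 36.9% of all tested genes, 18.2% higher and 18.7% lower), and 16 without Recruited total array 3. The largest were Hnrnpl, higher by 3.89 ± 0.36 SE (adjusted p = 2.7e-10), and Hnrnpr, lower (log2 difference -2.68 ± 0.57 SE, adjusted p = 0.000206). Srsf2 (at least 3.16-fold, Pdgf Cre dim), Srsf1 (2.26), Sf3b3 (1.29) and Hnrnph1 (1.11) were also higher in Recruited total RNA. Srsf12 (-2.03, arrays overlapping), Sf3b6 (-1.60), Sf3a3 (-1.35), Sf3b2 (-1.003), Snrpb2 (-1.32) and Snrpd1 (at least 2.2-fold, Recruited dim) were lower. Hnrnph1 (0.90 to 0.98 without Pdgf Cre total array 2 or Recruited total array 1 or 2), Sf3b2 (-0.98 without Pdgf Cre total array 1 or Recruited total array 3) and Sf3b3 (0.95 without Recruited total array 2) lost their calls with that 1 array left out. With the values as deposited, 74.7% of the genes called were higher, against 49.3% on the common scale.

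Whether the ratio of bound to total RNA differed between models was tested as a difference of differences. Against Pdgf tumours, Recruited tumours had 2 members with a higher and 7 with a lower ratio (background 30% of all tested genes, 16% higher and 14% lower), and 11 in all without Recruited total array 3. Hnrnpr (-2.79 ± 0.81 SE, adjusted p = 0.00625, and 0.168 with the replicate block), Hnrnpu (-2.29), Hnrnpl (-1.64), Snrpd1 (-1.59), Srsf2 (-1.58), Srsf1 (-1.42) and Sf3b5 (-1.16) had the lower ratios. Hnrnpa2b1 (1.15) and Srsf11 (1.01) had the higher ones, the values being less negative in Recruited tumours. Snrpd1 was dim in Recruited total and Srsf2 in Pdgf Cre total RNA, so ratio differences that use those levels are not exact. Against Pdgf Cre tumours, 6 ratios differed in Recruited tumours (background 26.7% of all tested genes, 13.8% higher and 12.9% lower, and 8 without Recruited total array 3): Hnrnpl (-2.41), Srsf1 (-1.90), Snrpd1 (-1.86) and Srsf2 (-1.57) lower, Srsf12 (1.91, adjusted p = 0.194 with the replicate block) and Hnrnpa2b1 (1.23) higher. That count was 4 without Recruited bound array 1 and 10 without Recruited bound array 2. Between Pdgf Cre and Pdgf tumours only Hnrnpu (-1.43) and Hnrnpd (-1.05) had a lower ratio in Pdgf Cre (background 12.3% of all tested genes, 6.04% higher and 6.3% lower). With the replicate block 4 members were called, Hnrnpr (adjusted p = 0.0172) among them, and with the values as deposited 1. On the deposited scale 59.9% of the genes called were higher, against 49% on the common scale. Against Pdgf tumours Hnrnpa2b1 (0.70 to 0.92 without Recruited bound array 1 or Recruited total array 3), Sf3b5 (-0.98 to -0.86 without Pdgf bound array 1 or Pdgf total array 2) and Srsf11 (0.79 to 0.96 without Pdgf bound array 1, Pdgf total array 2, Recruited bound array 1 or 2 or Recruited total array 3) lost their calls with that 1 array left out. Hnrnpr kept its call at -1.80 without Recruited bound array 1. Against Pdgf Cre tumours Hnrnpa2b1 (0.78 to 0.99 without Recruited bound array 1 or Recruited total array 3) and Srsf12 (1.39 to 1.71 without Pdgf Cre bound array 1, Pdgf Cre total array 3, Recruited bound array 1 or Recruited total array 1 or 2) lost their calls with that 1 array left out. Between Pdgf Cre and Pdgf tumours Hnrnpd (-0.98 to -0.91 without Pdgf bound array 2 or 3 or Pdgf total array 1) and Hnrnpu (-1.34 to -1.18 without Pdgf Cre bound array 2 or Pdgf Cre total array 1) lost their calls with that 1 array left out. That count was 1 without Pdgf Cre bound array 2, Pdgf Cre total array 1 or Pdgf bound array 2 or 3.

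In cortex, bound RNA of each population was set against the same 5 arrays of cortex total RNA, so the 5 comparisons are not independent. All 5 populations carried more Snrpd3 than cortex total RNA. Glial populations carried more Srsf9 and less Srsf12. Neuron arrays of Srsf9 and Srsf12 lay to the same sides of cortex total RNA without overlap, but were not called. Neurons carried less Hnrnpu and Hnrnpa2b1, and Hnrnpu was lower in progenitors too. Neurons had 3 members higher and 3 lower (18.2%, background 28.2% of all tested genes, 13.4% higher and 14.8% lower). Snrpd1 (7.75 ± 0.022 against 6.04 ± 0.11, log2 difference 1.71 ± 0.18 SE, adjusted p = 1.85e-09), Hnrnpl (1.21) and Snrpd3 (1.02) were higher, and Hnrnpu (6.26 ± 0.0026 against 8.50 ± 0.47, log2 difference -2.25 ± 0.28 SE, adjusted p = 8.03e-08), Hnrnpa2b1 (-1.67) and Hnrnpdl (-1.30) lower. No Srsf or Sf3 gene was called in neurons. As deposited, 15 members were called, 14 of them higher. On that scale 75.4% of the genes called were higher, against 47.5% on the common scale, and the median gene lay at 0.66. Snrpd3 (0.90 to 0.99 without cortex total array 1, 3 or 4 or neuron array 1) lost the call with that 1 array left out.

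Astrocytes had 7 members higher and 9 lower (48.5%, background 61% of all tested genes, 31.1% higher and 29.8% lower), the highest count of the populations. Srsf12 was lower by at least 20.7-fold and dim (log2 difference -6.11 ± 0.41 SE, adjusted p = 3.95e-14). Srsf9 was higher by 8.07-fold (11.87 ± 0.071 against 8.85 ± 0.20), Snrpd1 by 6.52-fold, Snrpd3 by 4.72-fold and Hnrnpl by 4.13-fold. Sf3b5 and Sf3b6 were higher by 1.29 and 1.12, and Srsf2 by at least 2.27-fold, cortex total RNA being dim. Lower besides Srsf12 were Hnrnpul2, a relative of Hnrnpu (7.81 ± 0.45 against 10.31 ± 0.17, log2 difference -2.50 ± 0.16 SE, adjusted p = 1.73e-14), Hnrnpdl (-1.91), Hnrnpd (-1.67), Srsf6 (-1.56), Sf3b1 (-1.50), Hnrnpm (-1.37), Srsf11 (-1.34) and Srsf1 (-1.10). Apart from Hnrnpm, which was not followed, none of these calls was lost without any 1 array. Of the 16 calls, 15 held on all 3 scales.

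Progenitors had 9 members higher and 5 lower (42.4%, background 48.2% of all tested genes, 24.4% higher and 23.8% lower). Higher were Srsf9 (2.30), Snrpd1 (2.10), Srsf2 (at least 3.52-fold, cortex total dim), the U2 protein gene Snrpa1 (1.59), Hnrnph1 (1.43), Hnrnpm (1.41), Hnrnpa0 (1.36), Snrpd3 (1.31) and Srsf10 (1.30). Lower were Sf3b2 (8.59 ± 0.069 against 10.32 ± 0.072, log2 difference -1.73 ± 0.11 SE, adjusted p = 9.45e-15), Hnrnpdl (-1.45), Sf3b5 (-1.33), Hnrnpu (-1.22) and Srsf12 (-1.13). All 14 calls held on all 3 scales and without any 1 array. The gap between the 3' and 5' probe sets of the actin control, a sign of RNA length, was 6.51 ± 0.43 in progenitors, against 4.53 ± 1.02 in cortex total RNA. Its part in these differences was not tested. Mature oligodendrocytes had 5 members higher and 2 lower (21.2%, background 52.9% of all tested genes, 25.2% higher and 27.7% lower). Srsf9 (11.15 ± 0.10 against 8.85 ± 0.20), Snrpd3 (1.55), Hnrnpm (1.54), Sf3b3 (1.24) and Srsf1 (1.11) were higher, and Srsf12 (log2 difference -2.12 ± 0.41 SE, adjusted p = 3.63e-05) and Hnrnpd (-1.36) lower.

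Cortical Olig2 cells had 10 members higher and 5 lower (45.5%, background 56.1% of all tested genes, 29.5% higher and 26.6% lower). Snrpd1 (8.99 ± 0.31 against 6.04 ± 0.11, log2 difference 2.95 ± 0.18 SE, adjusted p = 4.6e-15), Srsf9 (2.71) and Snrpd3 (2.60) led the higher genes, followed by Srsf2 (at least 2.6-fold, cortex total dim), Sf3b5 (1.45), Hnrnpm (1.37), Hnrnpab (1.33), Srsf10 (1.32), Hnrnpl (1.10, arrays overlapping) and Snrpa1 (1.05). Srsf12 (-2.58), Hnrnpdl (-1.69), Sf3b1 (-1.63), Hnrnpd (-1.53) and Hnrnpul2 (-1.15) were lower. Hnrnpl (0.75 to 0.89 without cortical Olig2 array 1 or 2) and Snrpa1 (0.99 without cortical Olig2 array 1) lost their calls with that 1 array left out. Without cortical Olig2 array 3 the value of Hnrnpl was 1.65. Over the 8 comparisons of bound with total RNA, all 32 values of the 4 Snrp genes were above 0, of which 18 were called. Most of the 18 were of Snrpd1 and Snrpd3, and 5 of the 8 comparisons share the cortex total arrays. Of all tested genes 28.2% to 61% were called in these comparisons, and how many were above 0 in all 8 was not counted. As deposited, 31 of the 32 Snrp values were above 0. The grid of bound minus total RNA shows this row block as the only one without a negative value.

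**Figure D4:**
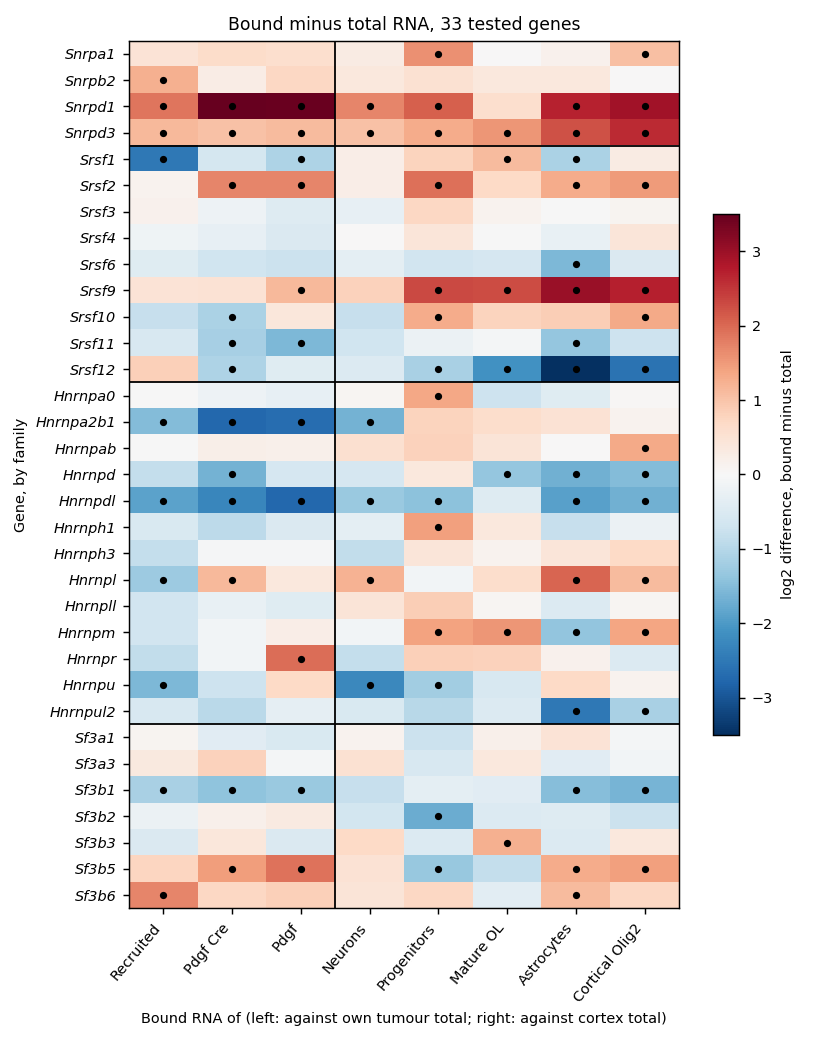
Log2 difference of bound minus total RNA (colour) for the 33 tested genes (rows, by family) in 3 tumour models and 5 cortical populations (columns), with a black dot where limma's adjusted p was under 0.05 and the difference at least 2-fold. The Snrp rows hold no negative value, Snrpd1 reaches 3.74 in Pdgf Cre tumours, and Srsf12 reaches -6.11 in astrocytes, past the end of the colour scale at 3.5.

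Between cortical populations, neurons were compared with the mean of the 4 glial populations. Srsf12 was the only member higher in neurons (9.53 against a glial mean of 7.03, log2 difference 2.50 ± 0.36 SE, adjusted p = 4.35e-07), and 7 were lower (in all 24.2%, background 50.2% of all tested genes, 25.3% higher and 24.9% lower). That glial mean rests in part on astrocytes, where Srsf12 was dim (3.91), so its size is not exact. The other glial populations had 8.88 in progenitors, 7.90 in mature oligodendrocytes and 7.43 in cortical Olig2 cells. Against those 3, in a comparison added after the data were seen, Srsf12 was higher in neurons by 1.46 ± 0.37 SE on the log2 scale (limma's adjusted p = 0.000969). The members called against all 4 were called against those 3 as well. Hnrnpm was called only against those 3, being lower in neurons (9.98 against 11.52, log2 difference -1.54, limma's adjusted p = 2.33e-07). It stood at 8.71 in astrocytes. Against all 4, Hnrnpa2b1 was lower in neurons by 4.51-fold (8.97 against 11.15), Hnrnpu by 4.04-fold, Srsf10 by 3.69-fold and Srsf9 by 3.42-fold. Hnrnph3, Hnrnpr and Srsf2 were lower too, with differences of -1.27, -1.18 and -1.11. The glial mean includes progenitors, whose actin gap between 3' and 5' probe sets was 6.51 ± 0.43, against 3.66 ± 0.26 in neurons. In the other glial populations the mean gap was 2.76 to 3.64. The part of this gap in the differences between neurons and glia was not tested. Hnrnpr (-1.20 to -1.14 without neuron array 1, 2 or 3) lost the call with that 1 array left out. As deposited, 13 members were called, 9 higher and 4 lower in neurons, and 67.9% of the genes called were higher, against 50.3% on the common scale. Progenitors against mature oligodendrocytes gave 7 higher and 3 lower (30.3%, background 38.7% of all tested genes, 18.8% higher and 19.9% lower). Hnrnpa0, which binds AU-rich messengers (14.01 ± 0.076 against 11.92 ± 0.052, log2 difference 2.09 ± 0.19 SE, adjusted p = 1.44e-10), Hnrnpd (1.74), Snrpa1 (1.59), Snrpd1 (1.51), Srsf2 (1.22), Sf3b6 (1.11) and Hnrnph1 (1.07) were higher in progenitors. The actin gap between 3' and 5' probe sets was 6.51 ± 0.43 in progenitors, against 3.64 ± 0.09 in mature oligodendrocytes, with no overlap, and its part in these differences was not tested. Sf3b3 (7.72 ± 0.18 against 9.43 ± 0.078, log2 difference -1.70 ± 0.24 SE, adjusted p = 3.3e-07), Sf3b2 (-1.25) and Hnrnpdl (-1.002) were lower. Hnrnpdl (-0.999 to -0.99 without mature oligodendrocyte array 2 or progenitor array 3), Hnrnph1 (0.93 without progenitor array 3) and Sf3b6 (0.93 without progenitor array 1) lost their calls with that 1 array left out. On the deposited scale 35.5% of the genes called were higher, against 48.6% on the common scale, and the members called were 4 higher and 8 lower.

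The mean of the tumour models differed from cortex in 17 members in total RNA and in 1 in bound RNA. By model, 6 members were called in bound RNA of Recruited, 7 of Pdgf Cre and 4 of Pdgf Olig2 cells. Some of these, such as Hnrnpr and Snrpd1, had opposite signs between models, which the mean does not show. In total RNA 15 of 33 were higher and 2 lower in tumours (51.5%, background 47.3% of all tested genes, 22.7% higher and 24.6% lower), with a median difference of 0.87 against -0.055 over all tested genes. Srsf9 was higher by 7.2-fold (11.70 in the mean of the models against 8.85, log2 difference 2.85 ± 0.27 SE, adjusted p = 9.78e-11), Srsf1 by 5.47-fold and Hnrnpa2b1 by 4.77-fold. Hnrnpl (1.72), Hnrnpm (1.60), Hnrnpab (1.56), Sf3b3 (1.62), Snrpd3 (1.38), Srsf10 (1.12) and Snrpa1 (1.07) were higher as well in the mean of the models. The models disagreed for Hnrnpl. Its Recruited and Pdgf arrays lay above all cortex total arrays, and its Pdgf Cre arrays (mean 6.26) lay below them. The other members higher, Hnrnpll, a regulator of CD45 splicing in lymphocytes, Hnrnpdl, Hnrnph1, Srsf4 and Srsf6, lay between 1.09 and 1.35. Srsf12 (log2 difference -2.12 ± 0.31 SE, adjusted p = 5.7e-07) and Hnrnpr (log2 difference -1.08 ± 0.39 SE, adjusted p = 0.0132) were lower, Hnrnpr with arrays overlapping. The arrays of Hnrnpl, Snrpd3, Srsf10, Hnrnph1 and Srsf6 overlapped too. For Hnrnpr the models went opposite ways. Its Pdgf Cre arrays (mean 13.01) lay above all cortex total arrays, and its Recruited and Pdgf arrays (mean 7.63 in Pdgf) lay below them. Without Recruited total array 3 the count was 18, and Hnrnpr (-0.98 to -0.86 without Pdgf total array 2 or cortex total array 1 or 2) and Srsf10 (0.95 without Recruited total array 1) lost their calls with that 1 array left out. Hnrnpab, Hnrnpll, Hnrnpdl, Hnrnph1, Srsf4 and Srsf6 were not followed when an array was left out. As deposited, 63.5% of the genes called were higher, against 48% on the common scale, and 11 of 17 calls held on all 3 scales.

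Cell type markers moved with that contrast. The 8 microglia and macrophage markers averaged 6.95 to 10.01 in Recruited, 8.87 to 9.66 in Pdgf Cre and 9.17 to 9.45 in Pdgf total RNA, against 5.59 to 6.09 in cortex total RNA, with 2 of 8 dim in each tumour model and 4 of 8 in cortex. The 4 oligodendrocyte lineage markers averaged 9.34 to 11.91 in Recruited, 11.46 to 11.57 in Pdgf Cre and 12.10 to 12.49 in Pdgf total RNA, against 7.24 to 7.55 in cortex. The 8 neuron markers averaged 8.73 to 11.57, 8.37 to 9.09 and 7.75 to 8.85 in the same 3 models, against 11.48 to 12.05 in cortex. The actin gap between 3' and 5' probe sets was 2.98 ± 0.67, 3.06 ± 0.51 and 2.62 ± 0.40 in these models. In cortex total RNA it was 4.53 ± 1.02, with arrays overlapping. The part of the markers and of this gap in the members' differences was not tested.

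In bound RNA of Olig2 cells, 1 of 33 members was called between the mean of the tumour models and cortex (3.03%), where the background was 27.9% of all tested genes, 13.5% higher and 14.4% lower. Sf3b3 was higher in tumours (9.60 against 8.56 ± 0.18, log2 difference 1.04 ± 0.19 SE, adjusted p = 3.6e-05), close to the 2-fold limit. Sf3b3 (0.97 to 0.999 without Pdgf Cre bound array 1, Recruited bound array 2 or cortical Olig2 array 1 or 3) lost the call with that 1 array left out. The count was 0 without Pdgf Cre bound array 1 or Recruited bound array 2, and 2 without cortical Olig2 array 1 or 2, Pdgf Cre bound array 3, Pdgf bound array 2 or Recruited bound array 3. The median member lay at 0.31, against 0.025 over all tested genes, with 28 of 33 above 0. Hnrnpa2b1, among the largest in total RNA, differed by -0.17 in bound RNA (95% interval -0.62 to 0.27), Snrpd3 by -0.14 (95% interval -0.66 to 0.38) and Hnrnpm by 0.061 (95% interval -0.38 to 0.50). As deposited 5 members were called. By model, and in comparisons added after the data were seen, 4 members were higher and 2 lower in Recruited (background 27.5% of all tested genes, 12.9% higher and 14.6% lower), 6 higher and 1 lower in Pdgf Cre (background 36.1% of all tested genes, 17.7% higher and 18.3% lower), and 3 higher and 1 lower in Pdgf tumours (background 32% of all tested genes, 16% higher and 16% lower). The 3 share the cortical Olig2 arrays.

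Markers moved with these contrasts of Olig2 cells as well. The mature oligodendrocyte markers averaged 10.94 to 13.41 in Recruited, 6.73 to 8.75 in Pdgf Cre and 6.38 to 6.56 in Pdgf bound RNA, against 13.01 to 13.08 in cortical Olig2 cells. The astrocyte markers averaged 10.24 to 10.99, 5.99 to 6.30 and 5.57 to 5.69 in the same models, against 9.30 to 9.48 in cortical Olig2 cells, and the 8 neuron markers 5.996 to 6.68, 4.99 to 5.18 and 4.91 to 5.05, against 7.78 to 8.08. Astrocyte markers were therefore higher than in cortical Olig2 cells in Recruited arrays and lower in Pdgf Cre and Pdgf arrays. Their part, and that of the other lists, in the members' differences was not tested.

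Recruited Olig2 cells had more Hnrnph1 (1.31), Sf3b3 (1.30), Hnrnpl (1.12) and Srsf9 (1.02) and less Snrpd1 (log2 difference -1.79 ± 0.20 SE, adjusted p = 1.18e-08) and Hnrnpr (-1.46) than cortical Olig2 cells. Pdgf Cre Olig2 cells had more Hnrnpr (log2 difference 1.97 ± 0.57 SE, adjusted p = 0.00413), Snrpd1 (1.53), Sf3b2 (1.22), Snrpb2 (1.18), Srsf6 (1.14) and Sf3a3 (1.14) and less Srsf10 (-1.24). Pdgf Olig2 cells had more Srsf9 (1.44), Hnrnpl (1.31) and Srsf6 (1.04) and less Hnrnpr (-1.37). Hnrnpr and Snrpd1 therefore had opposite signs against cortical Olig2 cells in Pdgf Cre and in Recruited tumours. With the replicate block the adjusted p of Hnrnpr was 0.0553 in Recruited and 0.0691 in Pdgf tumours, and that of Srsf9 0.0554 in Recruited tumours. For Recruited tumours Hnrnph1 (0.89 without cortical Olig2 array 3), Hnrnpl (0.57 to 0.80 without Recruited bound array 2 or cortical Olig2 array 3), Hnrnpr (-1.49 to -0.46 without Recruited bound array 1 or 3 or cortical Olig2 array 1, 2 or 3) and Srsf9 (0.28 to 0.94 without Recruited bound array 2 or 3 or cortical Olig2 array 3) lost their calls with that 1 array left out. For Pdgf Cre tumours Srsf10 (-1.11 to -1.04 without Pdgf Cre bound array 2 or cortical Olig2 array 3) lost the call with that 1 array left out. For Pdgf tumours Hnrnpl (0.76 without cortical Olig2 array 3), Hnrnpr (-1.40 to -1.13 without Pdgf bound array 1 or 2 or cortical Olig2 array 1, 2 or 3), Srsf6 (0.85 without Pdgf bound array 1) and Srsf9 (0.70 without cortical Olig2 array 3) lost their calls with that 1 array left out. Without cortical Olig2 array 3 the counts were 3 in Recruited and 2 in Pdgf tumours, and Hnrnpr reached -2.49 in Recruited tumours without Recruited bound array 2. On the deposited scale 63.4% of the genes called were higher, against 47% on the common scale, for Recruited tumours. In a comparison also added later, the ratio of bound to total RNA was higher in tumours than in cortical Olig2 cells for 1 member and lower for 9 (background 43.8% of all tested genes, 21.8% higher and 22.1% lower), 10 in all without Recruited total array 3, which shares arrays with both contrasts above. Srsf12 had the higher ratio (log2 difference 2.36 ± 0.49 SE, adjusted p = 0.000121), and Hnrnpa2b1 (log2 difference -2.42 ± 0.28 SE, adjusted p = 1.73e-08), Srsf9 (-2.01), Srsf10 (-1.83), Srsf1 (-1.68), Hnrnpm (-1.54), Snrpd3 (-1.52), Hnrnpab (-1.20), Hnrnpl (-1.03) and Hnrnph3 (-1.01) the lower ones. Hnrnpl (-0.996 to -0.68 without Pdgf Cre bound array 3, Pdgf bound array 1, Pdgf total array 3, Recruited bound array 1 or 3, Recruited total array 2, cortex total array 3 or cortical Olig2 array 1 or 2) lost the call with that 1 array left out. Hnrnpl reached -1.58 without cortical Olig2 array 3. Its value is a mean over models that disagree. Bound minus total RNA of Hnrnpl was 1.14 in Pdgf Cre tumours, against 1.10 in cortical Olig2 cells, and negative in Recruited tumours. Hnrnph3, close to the 2-fold limit, was not followed when an array was left out. As deposited, 35.9% of the genes called were higher, against 49.7% on the common scale.

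**Figure D5:**
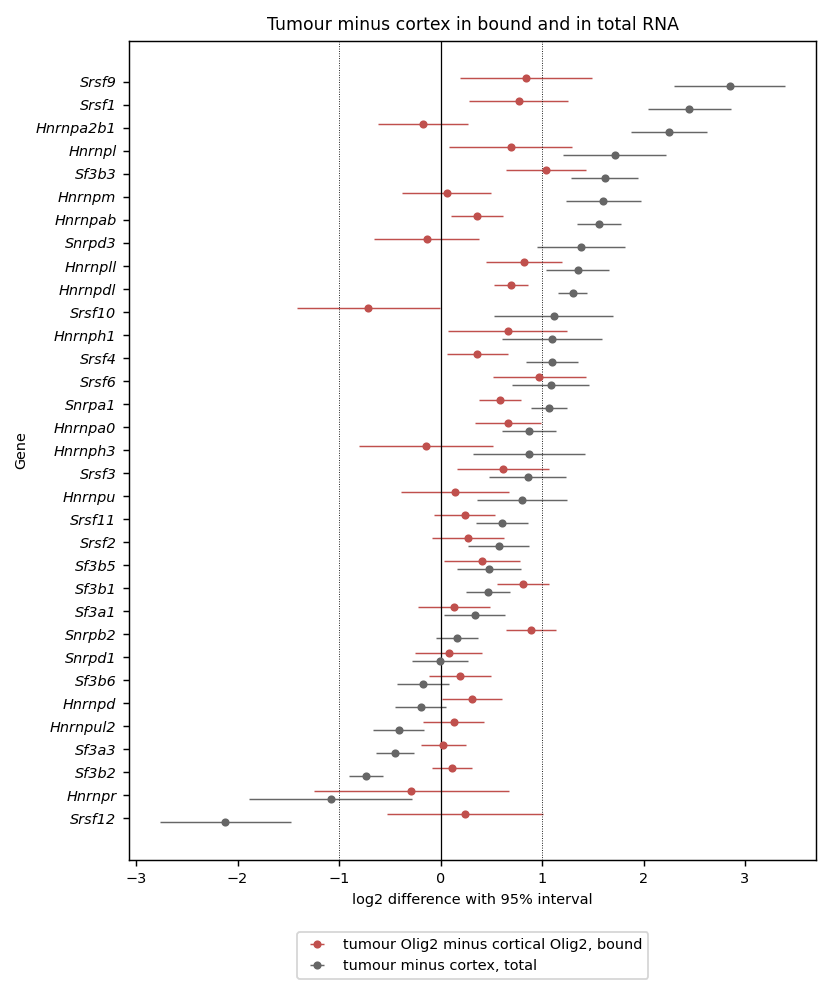
Log2 difference of tumour (mean of the tumour models) minus cortex with its 95% interval for the 33 tested genes (rows), in bound RNA of Olig2 cells (red) and in total RNA (grey), with dotted lines at a 2-fold difference either way. Total RNA values reach 2.85 for Srsf9 and -2.12 for Srsf12, and bound values other than that of Sf3b3 stay within 2-fold.

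Of 126 other splicing genes taken from general knowledge (core spliceosome proteins, kinases and tissue regulators), 111 were measured and 97 tested. Between neurons and glia 16 were higher and 10 lower in neurons, 26.8% of the 97 against 50.2% of all tested genes. Rbfox3, the neuronal nuclear antigen, stood at 11.91 ± 0.026 in neurons, against 8.57 in progenitors, 8.74 in mature oligodendrocytes, 6.20 in astrocytes and 8.05 in cortical Olig2 cells (log2 difference 4.02 ± 0.46 SE, adjusted p = 6.41e-09). Rbfox1 and Celf4 were also higher in neurons (3.36 and 3.08). Qk, needed for myelin messengers in oligodendrocytes, was dim in neurons (2.57 ± 0.0051) and at 12.54 in progenitors, 11.85 in mature oligodendrocytes, 12.09 in astrocytes and 11.48 in cortical Olig2 cells, at least 81.4-fold lower in neurons. Ptbp1, a repressor of neuronal exons, was dim in neurons (2.53 ± 0.064) and at least 5.29-fold lower there than in glia. The kinase gene Clk1 was lower too (-2.38). Ptbp2, the neural relative of Ptbp1, stood at 10.53 in neurons and between 10.07 and 12.97 in glia (log2 difference -1.01 ± 0.15 SE, adjusted p = 1.09e-06). Nova2 was dim in all 12 groups.

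In the mean of tumour total RNA over the models, 23 of the 97 were higher and 13 lower than in cortex (37.1% against 47.3% of all tested genes, and 26 higher and 13 lower without Recruited total array 3). Higher were Ptbp1 (at least 9.32-fold, cortex dim), Nova1 (at least 4.98-fold, cortex dim) and Lsm2 (dim in both, so no fold). Lower were Rbfox1 (-4.22), Rbfox3 (-3.59) and Elavl3 (at least 5.93-fold, the mean of the models being dim). Ptbp1 stood at 8.87 ± 2.05 in Recruited, 8.82 ± 0.16 in Pdgf Cre and 8.90 ± 0.46 in Pdgf total RNA, against 4.46 ± 0.80 in cortex total RNA. In bound RNA it stood at 8.80 ± 0.34, 8.96 ± 0.21 and 8.74 ± 0.45 in the same models, against 8.02 ± 0.38 in cortical Olig2 cells (log2 difference 0.81 ± 0.48 SE, adjusted p = 0.152). Between tumour and cortical Olig2 cells 8 were higher and 6 lower (14.4%, background 27.9%), led by Rbm15, Nova1 and Rbm25 (higher) and Rbfox3, Elavl3 and Celf4 (lower, at least 5.31-fold, at least 4.85-fold and at least 3.65-fold, tumours dim). In bound against total RNA of tumours, Rbfox3 was lower by at least 8.32-fold in Recruited, at least 7.86-fold in Pdgf Cre and at least 3.81-fold in Pdgf tumours, dim in each bound group. The counts were 12 higher and 26 lower in Recruited, 18 and 23 in Pdgf Cre, and 12 and 17 in Pdgf tumours. These made 39.2%, 42.3% and 29.9% of the 97, in the same order, where the background was 44.3%, 38% and 32.2%, and those in Recruited tumours were 10 higher and 32 lower without Recruited total array 3. Raly was higher in Recruited and Pdgf bound RNA (at least 1.95-fold and at least 3.05-fold, total RNA dim), and Rbm5 lower in Pdgf Cre (-4.60) and Pdgf bound RNA (at least 8.22-fold, bound dim). Between Pdgf Cre and Pdgf bound RNA 8 were higher and 8 lower (16.5%, background 16.6%), with Celf4 (at least 5.67-fold, Pdgf dim), Ddx46 and Rbm5 higher and Rbm25, Nova1 and Clk4 lower.

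Against cortex total RNA, 11 of the 97 were higher and 8 lower in neurons, 23 and 11 in progenitors, 29 and 15 in mature oligodendrocytes, 16 and 33 in astrocytes, and 18 and 21 in cortical Olig2 cells. These made 19.6%, 35.1%, 45.4%, 50.5% and 40.2% of the 97, in the same order, below the background of 28.2%, 48.2%, 52.9%, 61% and 56.1% of all tested genes in each. Ptbp1 was higher in astrocytes (at least 11.8-fold), progenitors (at least 8.46-fold) and cortical Olig2 cells (at least 5.19-fold), in each case against a dim cortex level. Celf4 was lower in progenitors (-3.46), mature oligodendrocytes (-3.79) and cortical Olig2 cells (-5.57), and Elavl2 in astrocytes (-5.41) and mature oligodendrocytes (-3.23). Qk was lower in neurons by at least 15.0-fold (2.57 ± 0.0051 against 9.55 ± 0.11).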

How the data were processed

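RNA of 38 samples was hybridised to Affymetrix mouse arrays after a 2-cycle amplification, per the labels' protocols. Per the submitters' processing notes the authors used GCRMA (no version is given), and its log2 signals are what was deposited. Each of the 12 groups shared its own minimum, so the authors ran GCRMA group by group. This can narrow the spread between replicates and leaves the scale between groups unknown. The deposited log2 values were therefore quantile normalized over all 38 arrays with limma 3.58.1 in R 4.3.3. The values as deposited, and these values centred on each array's median, were alternatives. Brightness limits precision here, since probe sets give no counts.

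The array held 16395 probe sets, of which 15644 mapped to 1 gene each, 687 to none and 64 were controls. Names came from the platform annotation and 15617 matched RefSeq (GRCm38.p6), with 0 changed. Columns of values left out numbered 0. The test needed a level above log2 50 in 3 or more arrays, which removed 5845 genes. Differences were fitted in 1 linear model of the 12 groups (26 residual degrees of freedom) with limma's lmFit and eBayes, with Benjamini-Hochberg adjustment over all 9799 genes tested in each of 25 comparisons. A fold against a dim group is a lower bound, set against the limit of 50. The fit was tested on simulated data with known changes.

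Same-numbered bound and total arrays of a tumour model deviated together, with correlations of 0.27 to 0.63 over genes, so the numbers pair these arrays. The main fit leaves the pairs out, and the replicate block is given where it changes a call. Other alternatives were no filter, only the arrays compared, and leaving out each array. Members and lists were chosen with earlier results of these data known, and 4 comparisons (tumours against cortical Olig2 cells by model and in the ratio of bound to total RNA) were added after the data were seen. The every-array levels are those of the 8 tested members with the widest range and of the narrowest of each family. Up to 3 called members per family and direction are named in each comparison, and the text also gives the other calls. Apart from the 3 scales, only these named members and the 8 widest were followed gene by gene through the alternatives. The 126 other splicing genes include up to 3 named calls per comparison, with Rbfox3, Nova2, Ptbp1, Ptbp2 and Qk.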

Additional observations from a re-analysis of the deposited data

Results flagged for a closer look

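In cortex total RNA, the only group with more than 3 arrays, 1 array stood apart from the other 4 in 4 of 33 members. The rule's nominal rate is about 1 in 20, or 1.65. The share over all tested genes was not counted, so no excess in the members can be read from this. Hnrnpl read 7.07 in array 5, against 6.59 for its nearest neighbour. Hnrnpu read 9.32 in array 2, against 8.43. Hnrnpa2b1 read 10.16 in array 4, against 10.73. Srsf11 had a highest array of 11.31, against 11.06. Groups of 3 arrays were not examined in this way.

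The ratio of bound to total RNA differed between models by the interaction test, each value being a log2 difference of differences. For Recruited against Pdgf tumours these were Hnrnpr (-2.79), Hnrnpu (-2.29), Hnrnpl (-1.64), Snrpd1 (-1.59), Srsf2 (-1.58), Srsf1 (-1.42), Sf3b5 (-1.16), Srsf11 (1.01) and Hnrnpa2b1 (1.15). For Recruited against Pdgf Cre tumours they were Hnrnpl (-2.41), Srsf1 (-1.90), Snrpd1 (-1.86), Srsf2 (-1.57), Hnrnpa2b1 (1.23) and Srsf12 (1.91). For Pdgf Cre against Pdgf tumours they were Hnrnpu (-1.43) and Hnrnpd (-1.05). The 3 pairs share arrays. Between the mean of the tumour models and cortical Olig2 cells, whose ratios rest on the same cortex total arrays as other comparisons, the values were Hnrnpa2b1 (-2.42), Srsf9 (-2.01), Srsf10 (-1.83), Srsf1 (-1.68), Hnrnpm (-1.54), Snrpd3 (-1.52), Hnrnpab (-1.20), Hnrnpl (-1.03), Hnrnph3 (-1.01) and Srsf12 (2.36).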

How the results depend on the processing

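No called value of a named member changed direction under any alternative that was run. Of the named genes' values under the alternatives, 3946 kept their direction and their side of the threshold, 208 lost a call, 51 gained one and 85 that were called under neither setting changed sign. Counts that moved over 1.5 times are given with the main count in brackets. As deposited, members called numbered 15 in neurons (6), 2 for Recruited against Pdgf bound RNA (1), 1 for the ratio of Pdgf Cre against Pdgf tumours (2), 5 for tumour against cortical Olig2 cells (1), 13 for neurons against glia (8), 9 for Pdgf against cortical Olig2 cells (4) and 12 for Recruited against cortical Olig2 cells (6). Centred on each array's median, they numbered 2 for Recruited against Pdgf bound RNA (1) and 2 for tumour against cortical Olig2 cells (1). With only the arrays compared, they numbered 6 for bound against total RNA of Recruited tumours (10), 5 for Recruited against Pdgf total RNA (10), 3 for their ratios (9), 2 for Pdgf against cortical Olig2 cells (4) and 2 for Recruited against cortical Olig2 cells (6). Such a fit has fewer arrays to estimate the spread. The main fit shares 1 spread per gene over all 12 groups, and the Recruited groups varied most. Their median gene SD was 0.30 in bound and 0.45 in total RNA, against 0.03 to 0.21 elsewhere. The main p-values of Recruited contrasts can therefore be too small. With the replicate block, the ratio of Pdgf Cre against Pdgf tumours gave 4 (2). In cortex the numbers did not pair the arrays (correlations of -0.19 to 0.21), and as a block they ended the call of Hnrnpl in cortical Olig2 cells (adjusted p = 0.0736) and added Hnrnpr in neurons (0.0211). Beyond the calls named with the results, the block changed no other call of a named member. The causes were not tested.

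Leaving out each array in turn gave 9 to 13 calls for bound against total RNA in Recruited, 8 to 12 in Pdgf Cre and 9 to 11 in Pdgf tumours. Against cortex total RNA the ranges were 5 to 6 in neurons, 14 to 15 in progenitors, 7 to 7 in mature oligodendrocytes, 16 to 18 in astrocytes and 13 to 15 in cortical Olig2 cells. In bound RNA they were 6 to 8 for Pdgf Cre against Pdgf, 1 to 3 for Recruited against Pdgf and 7 to 11 for Recruited against Pdgf Cre tumours, and in total RNA 6 to 6, 9 to 11 and 10 to 16 for the same pairs. The ratios gave 1 to 3, 8 to 11 and 4 to 10, and 8 to 10 for tumours against cortical Olig2 cells. The ranges were 0 to 2 for tumour against cortical Olig2 cells (3 to 8 for Recruited, 6 to 8 for Pdgf Cre and 2 to 5 for Pdgf tumours), 16 to 18 for tumour against cortex total RNA, 8 to 10 for progenitors against mature oligodendrocytes and 7 to 8 for neurons against glia. Levels of Srsf12, Snrpd1 and Srsf2 that were dim give bounds only.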
